A study of Mus musculus with 88 samples.

Results

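The GATA transcription factors Gata1, Gata2, Gata3, Gata4, Gata5 and Gata6 were followed in mouse embryonic stem cells (ESCs) that had lost a subunit of Polycomb Repressive Complex 2 (PRC2), and in the cells that these ESCs formed. The members are the 6 genes of the family, taken by name and not by their values. All 6 were present in each table, of 53697 genes in the mesoderm table, 54393 in the endoderm table, 26007 in the table of bulk embryoid bodies and 15830 in the single-cell table. GATA factors bind the DNA word GATA through zinc fingers and open the way to cell types of the mesoderm and endoderm. Gata1, Gata2 and Gata3 are best known from blood, and Gata2 and Gata3 also from trophoblast. Gata4, Gata5 and Gata6 are known from heart and from endoderm, and forced expression of Gata4 or Gata6 turns ESCs into primitive endoderm. PRC2 methylates lysine 27 of histone H3 and holds many such genes silent in ESCs.

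The study asked how the loss of PRC2 subunits changes the exit from pluripotency and the choice of germ layer. Eed is a core subunit, Mtf2 belongs to the form called PRC2.1, and Jarid2 belongs to the form called PRC2.2. In the directed experiment, WT, Mtf2 null and Jarid2 null cells were sampled undifferentiated and after 5, 24 and 48 h of a mesoderm or an endoderm protocol, with 2 libraries per group and 48 libraries in all. In the embryoid body (EB) experiments, ESCs were grown as aggregates. Single EB cells of WT and of Mtf2, Jarid2 and Eed null genotype were sequenced on days 0, 4, 7 and 10, with 1 library for each genotype and day. Bulk RNA of EBs was sampled on days 0, 2, 4 and 7. The lines were those labelled Mtf2 null, Jarid2 null and Eed null and the WT lines Pcl1-3 WT, JM8 and J1. There was 1 sample for each line and day, and columns of the same sample were averaged. Columns of day 0 are named mono and those of later days eb, although the sample titles say eb for all days. Day 0 thus appears to be ESCs in monolayer, and the name bulk EBs below includes it.

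The mesoderm protocol used Activin A, BMP4, CHIR99021 and FGF2 for the first day and then A-83-01 with BMP4. The endoderm protocol used Activin A, CHIR99021 and FGF2 and then Activin A with DM3189. All cells were kept in serum with LIF before differentiation. The Mtf2 null allele is a gene trap. The study names 1 line for each null genotype, and the WT lines of the bulk EBs are those matched to them in background. The labels give E14 for all directed and single-cell libraries, which have 1 WT for all mutants, so that genotype and line cannot be told apart in those comparisons, that of Mtf2 null with WT cells included. The study calls the pairs of directed libraries technical duplicates, so p-values of the directed experiment measure only the spread between such libraries.

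In the directed libraries Mtf2 mRNA lay between 30.2 and 38.2 CPM (counts scaled to the library total after TMM normalization) in Mtf2 null cells and between 206 and 509 CPM in WT cells, whereas Jarid2 mRNA overlapped widely between Jarid2 null cells (189 to 622 CPM) and WT cells (307 to 661 CPM), so that its level does not check that label. In single cells Mtf2, Jarid2 and Eed were each lower in their own null libraries than in the WT library of the same day. On day 7, however, Jarid2 was about as low in Mtf2 null as in Jarid2 null cells, so that its level does not tell these labels apart on that day. In bulk EBs only Mtf2 was lower in its own null line than in the matched WT line on each day. It measured 315, 226, 230 and 164 CPM on days 0, 2, 4 and 7 against 414, 440, 325 and 386 CPM. The lowest Mtf2 level of day 0, 127 CPM, belonged to the Jarid2 null label. On days 4 and 7 the Mtf2 null label lay above J1 (143 and 103 CPM) and the Eed null label (209 and 145 CPM). The Mtf2 level of bulk EBs therefore does not check the Mtf2 null label. Bulk EB results are therefore given for libraries labelled with a genotype, with and without day 0. Library totals ran from 9111880 to 16898264 counts in the directed experiment, and whole reads recovered per single column of the bulk EBs from 3005707 to 22944105. The 4949 single cells had a median of 6650 unique molecular identifiers (UMIs, each marking 1 captured transcript) and the 16 libraries held 202 to 347 cells each. All 384 well barcodes occurred in at least 2 libraries, as each library used the same set.

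PRC2.1 is drawn to stretches of DNA that are dense in unmethylated CpG, and the promoters of 3 members are shown because they differ in that respect. They run from 250 bases before to 50 after the RefSeq gene start in GRCm38.p6, written 5′ to 3′ on the strand of the gene, with each CpG in capitals.
Gata1, chrX:7967861-7968160, minus strand: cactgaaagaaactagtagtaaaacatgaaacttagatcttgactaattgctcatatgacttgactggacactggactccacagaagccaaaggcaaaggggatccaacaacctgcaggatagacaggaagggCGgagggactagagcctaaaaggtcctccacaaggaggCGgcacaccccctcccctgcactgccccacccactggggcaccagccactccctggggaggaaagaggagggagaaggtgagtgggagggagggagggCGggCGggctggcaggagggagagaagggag
Gata2, chr6:88193641-88193940, plus strand: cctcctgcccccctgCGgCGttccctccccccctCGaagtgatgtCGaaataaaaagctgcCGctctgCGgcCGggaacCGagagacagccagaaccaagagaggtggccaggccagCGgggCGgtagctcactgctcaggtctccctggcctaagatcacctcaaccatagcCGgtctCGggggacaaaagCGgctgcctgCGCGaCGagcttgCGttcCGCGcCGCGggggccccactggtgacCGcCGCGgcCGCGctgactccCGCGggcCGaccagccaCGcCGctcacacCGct
Gata3, chr2:9878551-9878850, minus strand: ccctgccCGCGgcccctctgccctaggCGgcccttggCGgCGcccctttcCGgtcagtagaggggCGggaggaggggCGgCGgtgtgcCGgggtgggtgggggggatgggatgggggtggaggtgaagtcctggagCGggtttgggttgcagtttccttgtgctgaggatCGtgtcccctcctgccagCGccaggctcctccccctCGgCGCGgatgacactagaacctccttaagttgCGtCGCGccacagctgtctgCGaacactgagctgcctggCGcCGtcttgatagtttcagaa
The Gata1 window held 4 CpG, the Gata2 window 32 and the Gata3 window 22, against a median of 7 over 32851 promoters of the same length. As many CpG as in the Gata2 window, or more, were present in 9.52% of promoters, and as few as in the Gata1 window, or fewer, in 38%. A second Gata2 start (chr6:88198414-88198713, plus strand) had 29 CpG and the Gata5 start (chr2:180334630-180334929, minus strand) 26. The motif GATAA, read on both strands, was in none of these 5 windows and in 25.4% of all promoters. Entries for Gata4 and Gata6 were not used here.

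Gata4 and Gata6 were higher in Mtf2 null than in WT cells before differentiation began and at the end of both protocols. Gata4 (chr14:63198922-63271692, minus strand, in the GENCODE vM21 annotation of GRCm38) drives heart and visceral endoderm genes. In undifferentiated WT cells it measured 8.67 and 6.82 CPM in the libraries of the mesoderm series and 7.86 and 7.31 CPM in those of the endoderm series. In undifferentiated Mtf2 null cells the corresponding values were 30.4 and 34.4 CPM, and 27.4 and 35.2 CPM. All 4 Mtf2 null libraries lay above all 4 WT libraries. Across both series the difference was 2.06 ± 0.14 on the log2 scale (SE, 4 libraries per genotype), or 4.17-fold, with an adjusted p of 1.6e-14 by edgeR's quasi-likelihood test.

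A gene is called changed in the directed experiment when its adjusted p lies under 0.001 and its difference exceeds 1 on the log2 scale. By this rule 14.5% of the 19601 genes tested were called in undifferentiated Mtf2 null cells over both series, and 1.31% in undifferentiated Jarid2 null cells. Of the 6 members, 5 had enough counts to be tested, and Gata5 did not. In bulk RNA, fewer cells of a type and less RNA per cell cannot be told apart, and this holds for each bulk difference below.

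Gata6 (chr18:11052064-11085635, plus strand), the other factor of primitive endoderm, showed the wider gap. Undifferentiated WT cells had 1.97 and 1.79 CPM in the mesoderm series and 1.89 and 2.16 CPM in the endoderm series. Undifferentiated Mtf2 null cells had 15.7 and 17.3 CPM, and 17.1 and 18.4 CPM. The groups did not overlap, and the joint difference was 3.13 ± 0.18 (SE), or 8.77-fold, with an edgeR adjusted p of 5.0e-16. Among undifferentiated libraries, those with number 2 resembled their namesake in the other series more closely (mean chi-square per gene of 5.15 to 8.08) than the duplicate within their own series (8.03 to 12.2). When libraries of the same genotype and number were added over the series, both genes were still called.

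**Figure D1:**
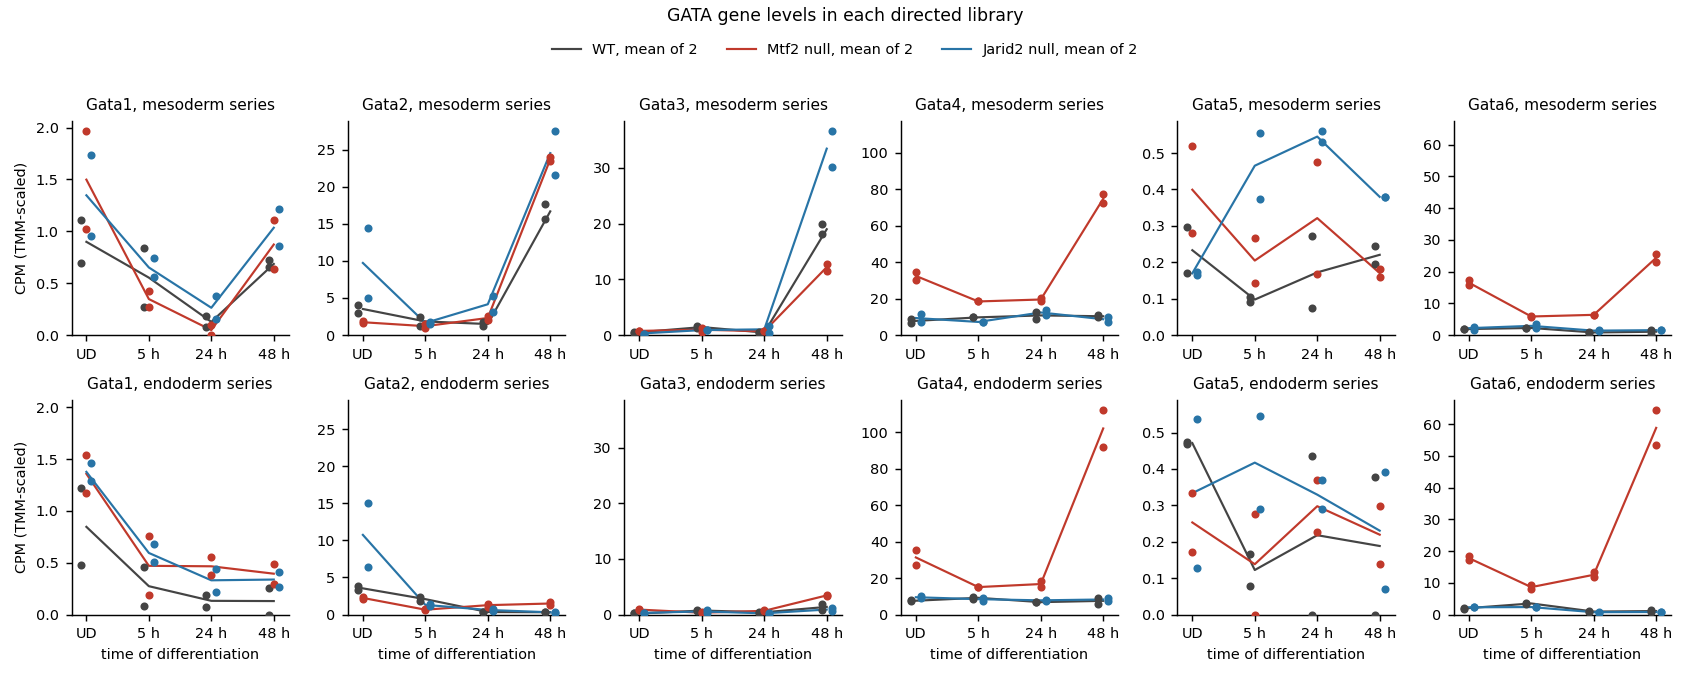
Level of each GATA gene in every directed library (points, CPM after TMM scaling, linear axis) against time of differentiation, with the mesoderm series above and the endoderm series below; lines join means of 2 libraries and UD is undifferentiated. Gata4 and Gata6 of Mtf2 null cells stand above the other genotypes and climb at 48 h to means of 102.1 and 58.8 CPM in the endoderm series, whereas Gata2 and Gata3 climb at 48 h in the mesoderm series in all 3 genotypes.

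After 48 h of the endoderm protocol Gata4 reached 112.1 and 92.1 CPM in Mtf2 null cells, against 9.01 and 6.03 CPM in WT cells. The same protocol brought Gata6 to 64.3 and 53.3 CPM in Mtf2 null cells, against 0.693 and 1.51 CPM in WT cells. In WT cells of this protocol neither gene was called between undifferentiated and 48 h (-0.01 ± 0.20 for Gata4 and -0.89 ± 0.33 for Gata6). The differences at 48 h were 3.76 ± 0.17 (SE, 13.5-fold) for Gata4 and 5.75 ± 0.23 (53.7-fold) for Gata6, with edgeR adjusted p-values of 2.1e-13 and 2.4e-14. In the mesoderm protocol Gata4 had 77.2 and 72.3 CPM in Mtf2 null against 9.80 and 10.8 CPM in WT cells (2.86 ± 0.18, adjusted p = 3.2e-10). Gata6 had 25.5 and 23.1 CPM against 0.458 and 1.63 CPM there (4.59 ± 0.31, adjusted p = 5.6e-10). All 8 differences of Gata4 and Gata6 between Mtf2 null and WT cells, undifferentiated and at 48 h in both series, were larger than the spread between duplicates.

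At 5 h the differences of both genes were smaller than in undifferentiated cells, and at 24 h those of Gata4 were. At 5 h of the mesoderm protocol Gata4 stood at 18.4 CPM in each Mtf2 null library against 9.66 and 9.72 CPM in WT cells, and its difference of 0.93 ± 0.20 did not pass (adjusted p = 0.00113). Gata6 at 5 h was called in the endoderm series (1.30 ± 0.21, adjusted p = 5.3e-05) and not in the mesoderm series (1.38 ± 0.30, adjusted p = 0.00152), where it passed with DESeq2 (9.98e-04) and without the filter on low counts (7.4e-05). At 24 h Gata6 was called in both series, at 2.96 ± 0.34 and 3.71 ± 0.24 (adjusted p of 2.0e-06 and 1.4e-10), and Gata4 in the endoderm series (1.29 ± 0.18, adjusted p = 9.8e-06). Gata4 at 24 h of the mesoderm protocol had a difference of 0.87 ± 0.19, with an adjusted p of 0.0020. In total 5 of 20 tests of the 5 members in the 4 times of the mesoderm series were called in Mtf2 null cells, and 7 of 20 in the endoderm series, all of Gata4 and Gata6 and all upward. The shares of all genes called in either direction were 11.1%, 7.56%, 5.72% and 6.82% in the mesoderm series, from undifferentiated to 48 h, and 11%, 7.61%, 6.58% and 10.5% in the endoderm series. The tests of 1 series share the libraries of its fit, and those of both mutants share the WT libraries.

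The order of the Gata4 levels followed genotype first. The mean was highest in Mtf2 null cells at 48 h of endoderm (102.1 ± 14.1 CPM, SD, n = 2), then at 48 h of mesoderm (74.7 ± 3.50), and then in the undifferentiated groups of the same genotype (32.4 ± 2.82 and 31.3 ± 5.51), which did not differ beyond their spread. The Mtf2 null groups at 5 and 24 h came next, with means of 15.1 to 19.5 CPM, and the 16 groups of WT and Jarid2 null cells followed, with means of 6.80 to 12.4 CPM and much overlap between neighbours. For Gata6 the 8 Mtf2 null groups again came first, with means of 5.83 to 58.8 CPM, and the remaining 16 groups lay between 0.733 and 3.49 CPM. Per kb of exon, Gata4 had a mean level of 26.2 CPM per kb and Gata6 9.04 CPM per kb at 48 h of endoderm in Mtf2 null cells, and 1.93 and 0.169 CPM per kb in WT cells.

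Whether the Mtf2 null effect itself grew with differentiation was tested as an interaction between genotype and time. In the endoderm series the effect at 48 h exceeded that in undifferentiated cells by 1.71 ± 0.25 for Gata4 (adjusted p = 4.1e-05) and by 2.62 ± 0.36 for Gata6 (adjusted p = 2.6e-05, both edgeR). Of all genes, 5.24% were called in this contrast. In the mesoderm series the corresponding values of 0.79 ± 0.27 and 1.46 ± 0.45 did not pass (adjusted p of 0.0451 and 0.0275), and 2.71% of genes were called. For Jarid2 null cells 0.514% of genes were called in the endoderm series and 0.0545% in the mesoderm series, and none of the members.

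**Figure D2:**
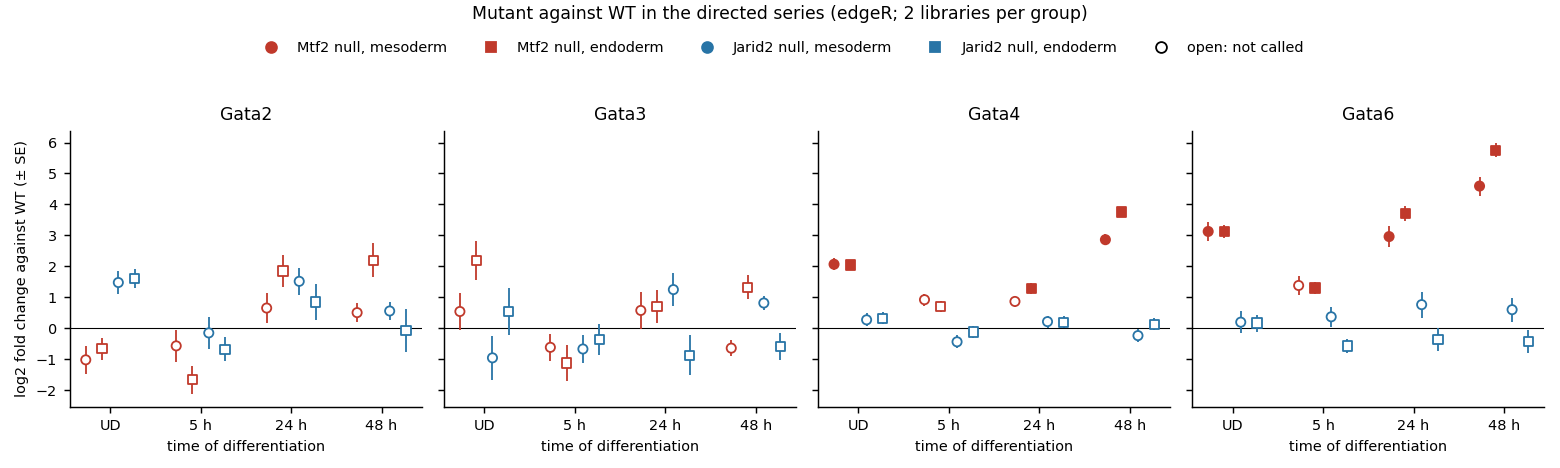
Difference of Mtf2 null (red) and Jarid2 null (blue) cells from WT on the log2 scale, with bars of 1 SE from the edgeR fit, for 4 GATA genes at each time in the mesoderm (circles) and endoderm (squares) series; filled symbols passed both thresholds. The filled symbols are those of Mtf2 null cells for Gata4 and Gata6, with the highest at 5.75 for Gata6 at 48 h of endoderm.

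Gata2 and Gata3 rose along the mesoderm protocol. Gata2 (chr6:88193891-88207032, plus strand), which acts in blood stem cells and trophoblast, had 4.04 and 2.98 CPM in undifferentiated WT cells of the mesoderm series and 15.7 and 17.7 CPM at 48 h. Gata3 (chr2:9857078-9890034, minus strand), which acts in T cells and trophoblast, went from 0.394 and 0.596 CPM to 18.1 and 19.9 CPM in the same cells. Both rises exceeded the spread between duplicates, with 2.25 ± 0.35 for Gata2 (adjusted p = 4.8e-05) and 5.21 ± 0.38 for Gata3 (adjusted p = 2.2e-09, both edgeR). In Mtf2 null cells Gata2 rose by 3.78 ± 0.39 (adjusted p = 5.3e-07) and Gata3 by 4.03 ± 0.37 (adjusted p = 9.2e-08). Jarid2 null cells reached 30.3 and 36.7 CPM of Gata3 at 48 h, the highest of the 24 groups, from 0.249 and 0.260 CPM, a rise of 6.98 ± 0.40 (adjusted p = 8.9e-11). Gata2 in Jarid2 null cells reached 21.5 and 27.6 CPM from 14.4 and 5.03 CPM, and its difference of 1.33 ± 0.31 did not pass (adjusted p = 0.00226), but did without the filter on low counts (1.0e-08) or without Jarid2 null undifferentiated replicate 1 (2.29, adjusted p = 2.0e-05). At 48 h of mesoderm the mean levels per kb of exon in WT cells were 4.78 CPM per kb for Gata3, 3.09 for Gata2, 2.63 for Gata4 and 0.160 for Gata6.

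In the endoderm protocol the course of Gata2 was opposite. WT cells went from 3.79 and 3.28 CPM to 0.346 and 0.283 CPM, a fall of 3.44 on the log2 scale ± 0.50 (adjusted p = 1.4e-05). In Jarid2 null cells Gata2 went from 15.1 and 6.46 CPM to 0.345 and 0.261 CPM (-5.12 ± 0.43, adjusted p = 9.7e-09). Mtf2 null cells kept 1.72 and 1.26 CPM at 48 h, after 2.43 and 2.06 CPM, and this change of -0.59 ± 0.38 did not pass (adjusted p = 0.248). Their Gata2 level at 48 h differed from WT by 2.20 ± 0.54, and the interaction with time was 2.85 ± 0.65, but neither passed the threshold of 0.001 (adjusted p of 0.0028 and 0.0031) unless the filter on low counts was dropped (5.1e-04 and 3.8e-04). In WT cells the 48 h effect on Gata2 differed between the mesoderm and the endoderm protocol by 5.70 ± 0.67 (adjusted p = 4.3e-07), in a contrast that called 1.35% of genes. For Gata3 this difference between protocols was 2.43 ± 0.96 and did not pass (adjusted p = 0.161).

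Gata3 was lower at 48 h of the endoderm protocol than at 48 h of the mesoderm protocol in every library. At 48 h it measured 0.866 and 1.88 CPM in WT cells, 0.689 and 1.11 CPM in Jarid2 null cells and 3.59 and 3.28 CPM in Mtf2 null cells. The 2 Mtf2 null libraries lay above the others, with a difference from WT of 1.33 ± 0.39 that did not pass (adjusted p = 0.0106). Its difference between undifferentiated and 48 h in WT cells, 2.79 ± 0.60, lay just short of a call (adjusted p = 0.00101) and was called with DESeq2 size factors (9.9e-04), without the filter on low counts (5.4e-04) and without WT 48 h replicate 1 (4.3e-04). Its rise in Mtf2 null cells, 1.94 ± 0.41, was called (adjusted p = 8.1e-04) but lost with DESeq2 (adjusted p = 0.0115), with a replicate block (0.00112) and without any 1 of the 4 libraries (0.00436 to 0.017). In undifferentiated cells Gata3 ranged from 0.726 to 1.00 CPM in 4 Mtf2 null libraries and from 0.187 to 0.596 CPM in 4 WT libraries, and the difference of 1.37 ± 0.43 did not pass (adjusted p = 0.0078).

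Over all members, 12 of 30 tests of 48 h against undifferentiated were called. The shares of all genes called in these contrasts were 8.64% in WT, 6.28% in Mtf2 null and 8.5% in Jarid2 null cells of the mesoderm series, and 8.15%, 8.93% and 8.5% in the endoderm series. Gata4 was called in Mtf2 null cells and not in WT or Jarid2 null cells, with rises of 1.21 ± 0.17 in mesoderm (adjusted p = 2.1e-05) and 1.70 ± 0.15 in endoderm (adjusted p = 1.3e-08). Gata6 rose in Mtf2 null cells in endoderm by 1.72 ± 0.16 (adjusted p = 3.7e-08). In Jarid2 null cells Gata6 went from 2.26 and 2.31 CPM to 0.827 and 0.784 CPM in endoderm (-1.49 ± 0.30, adjusted p = 5.3e-04), a call that was lost without any 1 of the 4 libraries (adjusted p of 0.00382 to 0.00934). The rise of Gata2 in WT mesoderm was lost without WT undifferentiated replicate 2 of that series (2.04, adjusted p = 0.0032), and that of Gata4 in Mtf2 null mesoderm without Mtf2 null undifferentiated replicate 1 (1.12, adjusted p = 0.00144).

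In Jarid2 null cells 1 member was called against WT, in the fit over both series. None of the 5 members passed in any of the 8 comparisons at single times, in which 0.37%, 0%, 1.97% and 0.169% of all genes were called in the mesoderm series and 0.742%, 0.0363%, 0.0312% and 0.125% in the endoderm series. Without the filter on low counts Gata2 was called in undifferentiated cells of each series (adjusted p of 6.5e-07 and 2.4e-05) and at 24 h of mesoderm (1.5e-05). The member called over both series was Gata2. Undifferentiated Jarid2 null cells had 14.4, 5.03, 15.1 and 6.46 CPM, against 4.04, 2.98, 3.79 and 3.28 CPM in WT cells. The lowest Jarid2 null library lay above the highest WT library, and the duplicates of Jarid2 null cells lay far apart. The joint difference was 1.55 ± 0.25 (2.93-fold, edgeR adjusted p = 2.4e-05). It no longer passed without Jarid2 null replicate 1 of the mesoderm series (1.06, adjusted p = 0.00203) or of the endoderm series (1.19, adjusted p = 0.00112), or when libraries of the same number were added over the series (1.54, adjusted p = 0.0199). In undifferentiated Mtf2 null cells Gata2 measured 1.59 to 2.43 CPM, below each of the 4 WT libraries, but the difference of -0.83 ± 0.30 did not pass (adjusted p = 0.0206). The study reports a relatively strong derepression of Gata2 and Gata3 in undifferentiated Mtf2 null cells, and it names background-matched WT lines for bulk RNA. That comparison and the present one were not tested against each other.

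Gata1 and Gata5 were near the limit of detection in the directed libraries. Gata1 (chrX:7959260-7978071, minus strand), the master regulator of red blood cells, had 0 to 21 counts per library and a highest level of 1.97 CPM, in an undifferentiated Mtf2 null library. Its undifferentiated levels lay between 0.474 and 1.97 CPM over the 12 libraries, and those at 48 h of endoderm between 0 and 0.489 CPM. No contrast of Gata1 was called, and the closest was its change in Jarid2 null cells along the endoderm protocol, at -2.0 ± 0.67 (adjusted p = 0.0233). Gata5 (chr2:180325133-180334699, minus strand), which acts in heart endocardium and endoderm, had 0 to 8 counts per library and at most 0.561 CPM. Differences of Gata5 were not detectable at this depth. Exons of Gata3 share 155 bases with Gm13256 on the opposite strand and 77 with 9230102O04Rik on the same strand, those of Gata5 share 258 with Gata5os, and those of Gata6 share 93 with 1010001N08Rik. Whether the counting used strand is not given in the sources used here, so reads of these stretches cannot be assigned to 1 gene.

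The wider setting of Gata4 and Gata6 was examined with lists of genes from the same biology. Of 17 genes of primitive and visceral endoderm, 16 were tested, and 14 rose in undifferentiated Mtf2 null cells, with a median of 2.48 against -0.05 for all genes. Cubn, a receptor of visceral endoderm, rose from 8.26 to 14.6 CPM in 4 WT libraries to 164 to 206 CPM in 4 Mtf2 null libraries (4.06 on the log2 scale). The endoderm factors Foxa2 and Sox17 rose by 3.62 and 3.42. At 48 h all 16 tested genes were higher in Mtf2 null than in WT cells in both series, with medians of 4.29 in mesoderm and 5.71 in endoderm, against 0.01 and -0.02 for all genes. In Jarid2 null cells none of the 16 was called in undifferentiated cells. These genes moved in the same samples as Gata4 and Gata6, and which of them depend on GATA factors was not tested.

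No marker of definitive endoderm was called in WT cells along the endoderm protocol. Of Foxa2, Sox17, Cxcr4 and Cer1, 3 had enough counts for a test and none rose from undifferentiated to 48 h, with a median of -0.95. Foxa2 measured 0.346 and 0 CPM in WT cells at 48 h, against 19.8 and 15.6 CPM in Mtf2 null cells. Sox17 measured 0.173 and 0.377 CPM against 34.3 and 30.6 CPM. Of the 6 markers of primitive and visceral endoderm, 5 were tested and all 5 were higher in Mtf2 null than in WT cells at 48 h in both series, so that the rise of Gata4 and Gata6 there came with markers of that cell type. Their summed level at 48 h of endoderm was 44.4 and 35.6 CPM in WT cells, 41.3 and 38.7 CPM in Jarid2 null cells and 1840 and 1608 CPM in Mtf2 null cells, and Afp and Ttr were at 0 in the first 2 genotypes. The 4 definitive endoderm markers summed to 0.780 and 0.848 CPM in WT and to 56.8 and 48.2 CPM in Mtf2 null cells, with Cer1 at 0 in WT. The part of such cells in the rise of Gata4 and Gata6 was not tested. In WT mesoderm 2 of 4 tested cardiac markers rose by 48 h, with a median of 1.68. Of 11 partners of Gata2 and Gata3 in trophoblast 6 rose, with a median of 1.34 (all genes 0.00). Of all 18361 genes tested in the mesoderm series, 1022 rose and 565 fell in this contrast. The 5 trophoblast markers summed to 29.3 and 22.5 CPM in undifferentiated WT cells of that series and to 47.5 and 62.5 CPM at 48 h, and their part in the rise of Gata2 and Gata3 was not tested.

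The other lists are read against the 14.5% of all genes called in either direction in this contrast, and several lay near that share. Of the 19601 genes tested, 1513 rose and 1332 fell, and the counts below are of genes that rose. Of 11 tested cofactors, the blood factor Runx1 (2.72) and the LIM protein Lmo4 (1.31) rose in undifferentiated Mtf2 null cells, and the median of the list was 0.38. Runx1 ran from 0.663 to 2.07 CPM in 4 WT libraries and from 7.47 to 10.7 CPM in 4 Mtf2 null libraries. Of 7 tested cardiac partners only Tbx20 rose (2.61, median -0.14), and of 6 tested endothelial and blood genes the endothelial receptor Tek (2.60) and the cadherin Cdh5 (2.35) rose (median 0.67). Of 11 trophoblast partners, 3 rose, the keratins Krt18 (2.25) and Krt8 (1.54) and the factor Tfap2c (1.48), with a median of 0.58. Of 9 other genes with a GATA-type zinc finger, which mostly encode chromatin proteins, Mta3 (1.12) and Gatad2a (1.07) rose, with a median of 0.39. Of 4 genes named in the study's work on GATA2 binding, Wnt7b (4.35) and Pdgfra (2.27) rose, and Irx3 and Eomes were not called. The study reports both Irx3 and Wnt7b as more highly expressed in undifferentiated Mtf2 null cells. These genes were chosen on the same cells and are not independent evidence of a direction. No gene of these 6 lists fell in undifferentiated Mtf2 null cells, while in Jarid2 null cells 1 cardiac partner fell and none rose in any of the lists.

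Over the 24 group means of the directed libraries, the patterns most like that of Gata4 were those of Tfec (Pearson's r = 0.960 on log2 CPM), Qsox1 (0.958) and Lgmn (0.957). For Gata6 they were Nostrin (0.968), Foxa2 (0.963) and Vnn1 (0.961). Gata2 was closest to the inhibitory Smad gene Smad6 (0.877), to Pvr (0.864) and to Id1 (0.840), a target of BMP signalling. Gata3 was closest to Igf2 (0.947), Ehd1 (0.930) and Igf2os (0.923), and Gata1 to Gpx4 (0.894), Gabbr1 (0.846) and Glod5 (0.830). Among the members, Gata4 and Gata6 were the most alike pair, with 0.896. These values describe means that share libraries and time points and carry no test.

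In bulk EBs, Gata4 and Gata6 were higher under the labels Mtf2 null and Jarid2 null than in the WT lines on each of 4 days. In Pcl1-3 WT, Gata4 measured 0.822, 0.514, 0.162 and 3.33 CPM on days 0, 2, 4 and 7, and the label Mtf2 null had 17.8, 12.9, 38.6 and 62.2 CPM. Under the label Jarid2 null it measured 15.4, 23.7, 140.8 and 217.6 CPM, against 0.681, 0.561, 2.04 and 18.5 CPM in JM8. The null and WT ranges did not meet in the Mtf2 pair, and in the Jarid2 pair only the day 7 WT sample reached the level of the null libraries of day 0. The differences were 4.51 ± 0.62 and 4.49 ± 0.62 on the log2 scale (SE, 4 days), with limma adjusted p-values of 6.0e-05 and 7.1e-05. The days of each line, with day 0 named mono, are the only replicates of this fit. Its p-values therefore measure how steady a difference was over days, and not a spread between cultures of a genotype. Without day 0 they were 4.70 in both pairs (adjusted p of 3.0e-04 and 2.6e-04). A gene is called in bulk EBs when its limma adjusted p lies under 0.05, and 18.7%, 15% and 11.5% of 15850 genes were called for the Mtf2, Jarid2 and Eed null labels.

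Gata6 went from 6.12 and 9.54 to 7.60 and 29.5 CPM in the libraries labelled Mtf2 null, while Pcl1-3 WT had 1.22, 0.771, 0.996 and 2.99 CPM. The libraries labelled Jarid2 null had 7.88, 11.2, 38.9 and 99.5 CPM, against 0.754, 0.624, 2.04 and 29.4 CPM in JM8. The differences of 2.70 ± 0.65 and 3.04 ± 0.65 were called (limma adjusted p of 0.0067 and 0.0036), and they remained so without day 0 (2.93 and 3.11, adjusted p of 0.0117 and 0.0113). When the day term was dropped from the fit, both Gata6 calls were lost (adjusted p of 0.227 and 0.185). In the directed Jarid2 null cells, grown by another protocol and compared with another WT, neither gene was called. In single EB cells of day 7 both genes were lower in Jarid2 null than in WT cells, as given below. These experiments were not compared in a test.

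The libraries labelled Eed null had no called member. Gata4 measured 28.2, 12.6, 32 and 54.5 CPM against 4.63, 2.77, 72.7 and 58.8 CPM in J1, higher on days 0 and 2 and lower on days 4 and 7. Gata6 showed the same crossing, with 8.34, 4.52, 6.31 and 32.4 CPM against 3.39, 1.56, 45.3 and 113.8 CPM. The 6 cardiac markers crossed too, with sums of 147, 33.5, 54 and 274 CPM against 11.8, 6.59, 409 and 730 CPM. The 4 definitive endoderm markers summed to 17.0 CPM on day 4 against 90.7 CPM in J1, and the part of either list in these levels was not tested. Gata2 was the member with the highest day 0 level of any line, 102.6 CPM, followed by 19.5, 26.8 and 74.9 CPM, against 7.49, 7.64, 26.2 and 18.0 CPM in J1. It was higher on all 4 days, and the difference of 1.77 ± 0.84 did not pass (adjusted p = 0.175). Gata3 had 14.8, 2.47, 15.5 and 34 CPM against 1.07, 0.122, 16.5 and 14.9 CPM (1.74 ± 0.72, adjusted p = 0.123). At an unadjusted p under 0.05, Gata2 and Gata3 passed in this pair, and edgeR on the recovered reads called none of the members.

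Gata2 in the libraries labelled Mtf2 null measured 1.33, 12.8, 31.9 and 92.6 CPM in the order of the days, where Pcl1-3 WT had 1.78, 3.33, 1.98 and 14.9 CPM. It was higher on 3 of 4 days. With day 0 in the fit the difference was 1.97 ± 0.84 (limma adjusted p = 0.107), and without it 2.74 (adjusted p = 0.0173). In the libraries labelled Jarid2 null Gata2 was highest on day 0, at 22.9 CPM against 1.07 CPM in JM8, and had 2.19, 5.76 and 9.58 CPM against 0.902, 5.51 and 22.9 CPM later. The Mtf2 level of day 0 goes against the labels Mtf2 null and Jarid2 null, and whether these libraries were exchanged was not tested. In the directed experiment undifferentiated Jarid2 null cells had 5.03 to 15.1 CPM of Gata2 against 2.98 to 4.04 CPM in WT cells. The call of that difference was lost without Jarid2 null replicate 1 of either series. Gata3 on day 7 lay between 12.5 and 34 CPM in all 6 lines. Gata1 measured 38.3 and 13.7 CPM on day 7 in the WT lines J1 and JM8, against 1.37 CPM under the label Eed null and 5.89 CPM under Jarid2 null. The 4 blood markers summed on that day to 6343 CPM in J1 and 1068 CPM in JM8, and to 44 and 507 CPM under the labels Eed null and Jarid2 null, and their part in the Gata1 levels was not tested. Gata5 was listed with 0 to 60 recovered reads, and its highest level was 5.37 CPM, on day 7 in the library labelled Jarid2 null.

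**Figure D3:**
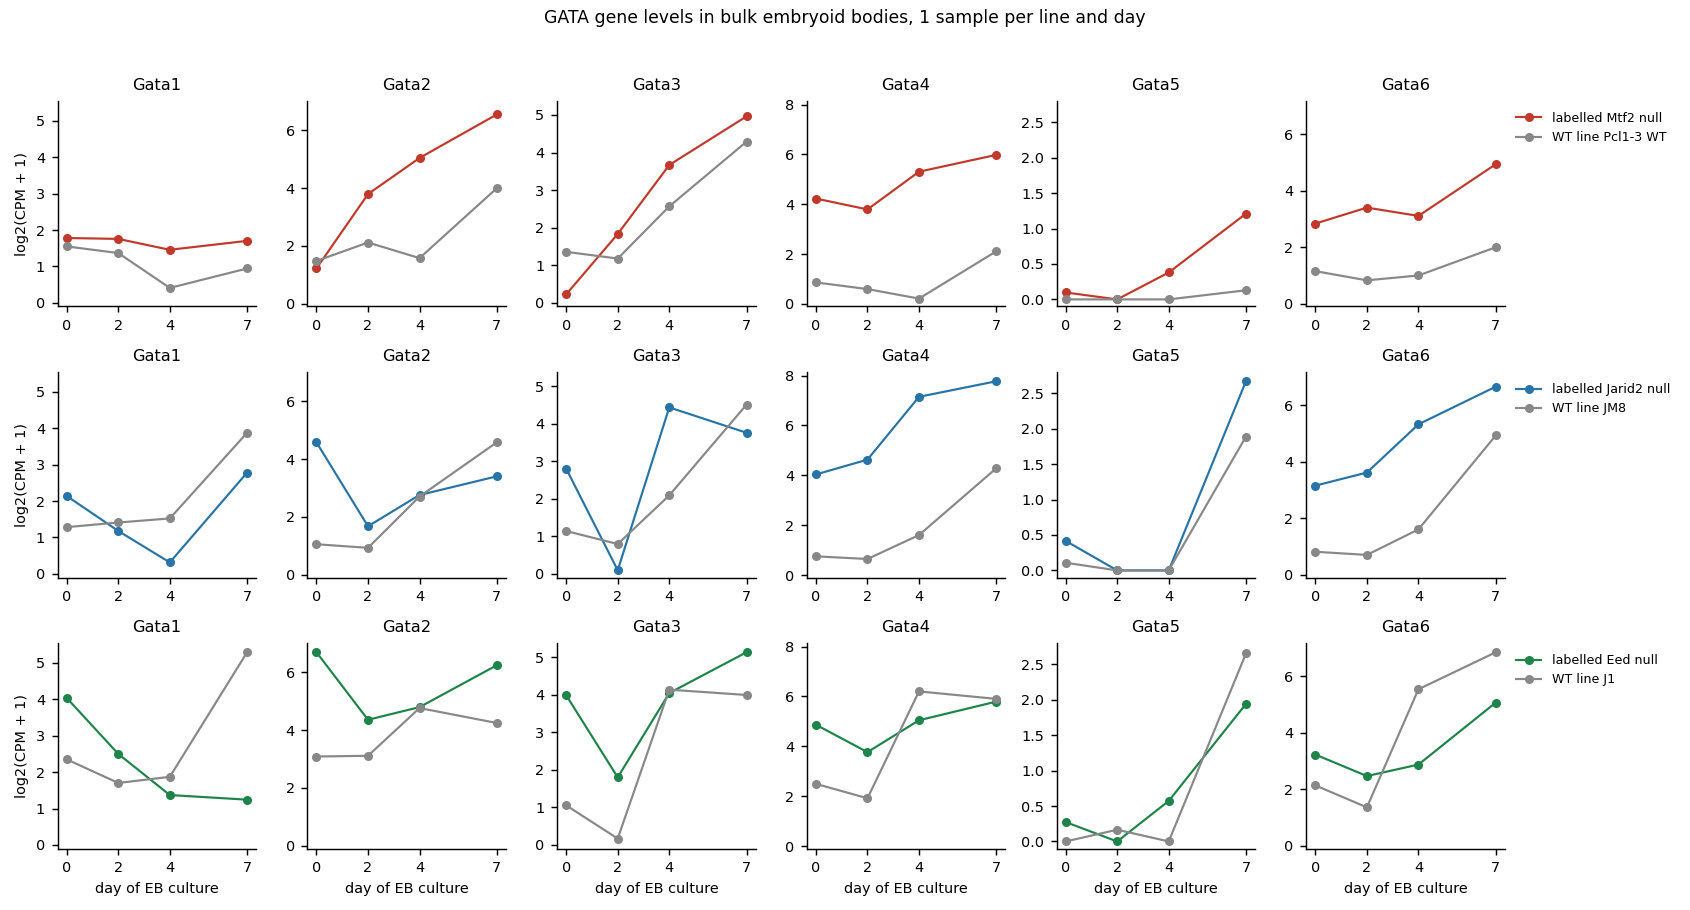
Level of each GATA gene in bulk EBs, as log2(CPM + 1) against day, for the libraries of each null label (colour) and the WT line of the pair (grey), with 1 sample per point. The columns of day 0 are named mono and not eb. Gata4 and Gata6 of the labels Mtf2 null and Jarid2 null lie above the WT line on all 4 days, and in the Eed pair the lines cross between days 2 and 4.

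Genes of primitive and visceral endoderm again moved with Gata4 and Gata6. All 17 were tested in bulk EBs. Of these 13 rose in the libraries labelled Mtf2 null (median 2.93) and 12 in those labelled Jarid2 null (median 2.79), against medians of 0.03 and 0.01 for all genes. Under the label Eed null 1 rose. Of all 15850 genes, 1561, 1126 and 930 rose under the labels Mtf2, Jarid2 and Eed null, and 1406, 1247 and 895 fell. Several counts of the other lists in this paragraph lie near these shares. The summed level of 6 primitive and visceral endoderm markers lay between 246 and 1994 CPM under the label Mtf2 null against 33.7 to 146 CPM in its WT line, and between 201 and 2033 CPM under the label Jarid2 null against 41.2 to 139 CPM. Its part in the Gata4 and Gata6 differences was not tested. Cubn had the largest differences, 6.50 and 4.97. Of 11 tested cofactors, Lmo4 rose under the label Mtf2 null (1.59) and Ldb1 fell by 0.76 under Jarid2 null and by 0.64 under Eed null. Of the 9 other genes with a GATA-type zinc finger, Zglp1 fell by 2.23 under Mtf2 null and Mta1 by 0.71 under Eed null. Of 10 tested endothelial and blood genes 2 fell under the label Mtf2 null, Tek (-2.87) and Pecam1 (-1.31). Under the label Eed null the endothelial genes Tek (-2.50) and Eng (-2.85) fell. Bmp4, a ligand of mesoderm induction counted among the cardiac partners, rose by 2.36 and 1.71 under the labels Mtf2 null and Jarid2 null, and the heart factor Nkx2-5 by 2.17 under the label Eed null. Of the trophoblast partners, Tfap2a rose under all 3 labels (2.23, 1.32 and 2.55 for Mtf2, Jarid2 and Eed null), Krt8 rose under Mtf2 null (2.82), Tead4 rose under Jarid2 null (1.30) and Eed null (1.11), and Tfap2c and Ascl2 each fell by 1.34 under Jarid2 null.

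In single cells the members were rare. Of 4949 cells, 1455 had at least 1 UMI of a member, 1008 of them for 1 member, 349 for 2, 75 for 3, 19 for 4 and 4 for 5. Values are UMI CPM, the UMIs of a gene over all UMIs of the cells in the group on the CPM scale, with exact Poisson intervals of 95%, and shares are of cells with a UMI. The 22 clusters were those deposited at a resolution of 2.5. They were built from the expression of these same cells, and each genotype and day is 1 library, so that no test is given and intervals cover counting error only.

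Gata1 was found in cluster 18. There it had 210 UMI CPM (181 to 243) and was detected in 71 of 114 cells (62.3%), and this cluster held 70.5% of its 258 UMIs. In cluster 21, where Gata1 was near background, 2 of 47 cells (4.26%) had a UMI, and the median depth was 6673 UMIs against 6004 in cluster 18. Cluster 18 also had the highest summed level of the blood markers, with 29950 UMI CPM of Hba-x and 19940 of Hbb-bh1. The genotypes in it were WT (69 cells), Mtf2 null (32), Jarid2 null (10) and Eed null (3), and Gata1 measured 167, 298 and 222 UMI CPM in the first 3.

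Gata2 was spread over clusters of different kinds. Its highest level was 189 UMI CPM (150 to 235) in cluster 19, where 21 of 57 cells had a UMI and the summed level of the endothelial markers was highest. It followed with 139 in cluster 16, 119 in cluster 10 and 88.4 in cluster 13, and these 3 consisted mostly or wholly of Eed null cells (123 of 134, 244 of 244 and 197 of 226). The intervals of clusters 16 (118 to 163) and 10 (105 to 134) overlapped. In cluster 21 Gata2 was found in 0 of 47 cells, which allows a share of up to 7.55% (Clopper-Pearson). In cluster 16, 1 cell held 37 of the 156 Gata2 UMIs, and the level after thinning each cell to 2500 UMIs was 93.5 UMI CPM.

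Gata3 was highest in cluster 13, at 102 UMI CPM (86.8 to 120) and in 74 of 226 cells (32.7%), and then in clusters 16 (56.2) and 4 (42.2), whose intervals overlapped. Among undifferentiated WT cells 0.882% had a Gata3 UMI, at a median of 8447 UMIs per cell against 5103 in cluster 13. After thinning, 22.2% of cells of cluster 13 and none of the WT day 0 cells had one.

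Gata4 was highest in cluster 21, at 239 UMI CPM (195 to 291) and in 28 of 47 cells (59.6%). This cluster also had the highest summed levels of the markers of definitive endoderm and of primitive and visceral endoderm. Cluster 14 followed with 116 (99.3 to 135), then cluster 4 with 78.4, cluster 13 with 56.1 and cluster 19 with 47.2. Among WT day 0 cells 2.06% had a Gata4 UMI. Gata6 was highest in cluster 13, at 317 UMI CPM (290 to 347) and in 144 of 226 cells, followed by cluster 4 at 253 (232 to 275) and in 194 of 324 cells. Clusters 21 (156), 14 (112) and 19 (111) came next, all 3 with overlapping intervals, and 0.294% of WT day 0 cells had a UMI. Cluster 4 had the highest summed level of the cardiac markers and cluster 13 the next. Gata4 and Gata6 thus took different orders over the clusters, with Gata4 leading in the cluster with endoderm markers and Gata6 in those with cardiac markers.

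Gata5 was the rarest member, with 116 UMIs in all, of which 51.7% lay in cluster 4 and 32.8% in cluster 13. Its levels there, 27.5 (21.0 to 35.4) and 25.1 (17.7 to 34.4) UMI CPM, overlapped. In both clusters most cells with a Gata5 UMI also had one of Gata6, 23 of 30 in cluster 4 and 23 of 29 in cluster 13. Over all cells, 188 had both Gata4 and Gata6, which is 41.9% of the 449 with Gata4 and 29.5% of the 637 with Gata6. In cluster 21 this was 16 of 28 cells with Gata4 and 16 of 18 with Gata6. Gata1 and Gata2, which follow each other in the making of red blood cells, were found together in 8 cells of cluster 18, of 71 with Gata1 and 13 with Gata2. Deeper cells have a UMI of any gene more often, so these shares depend on depth.

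**Figure D4:**
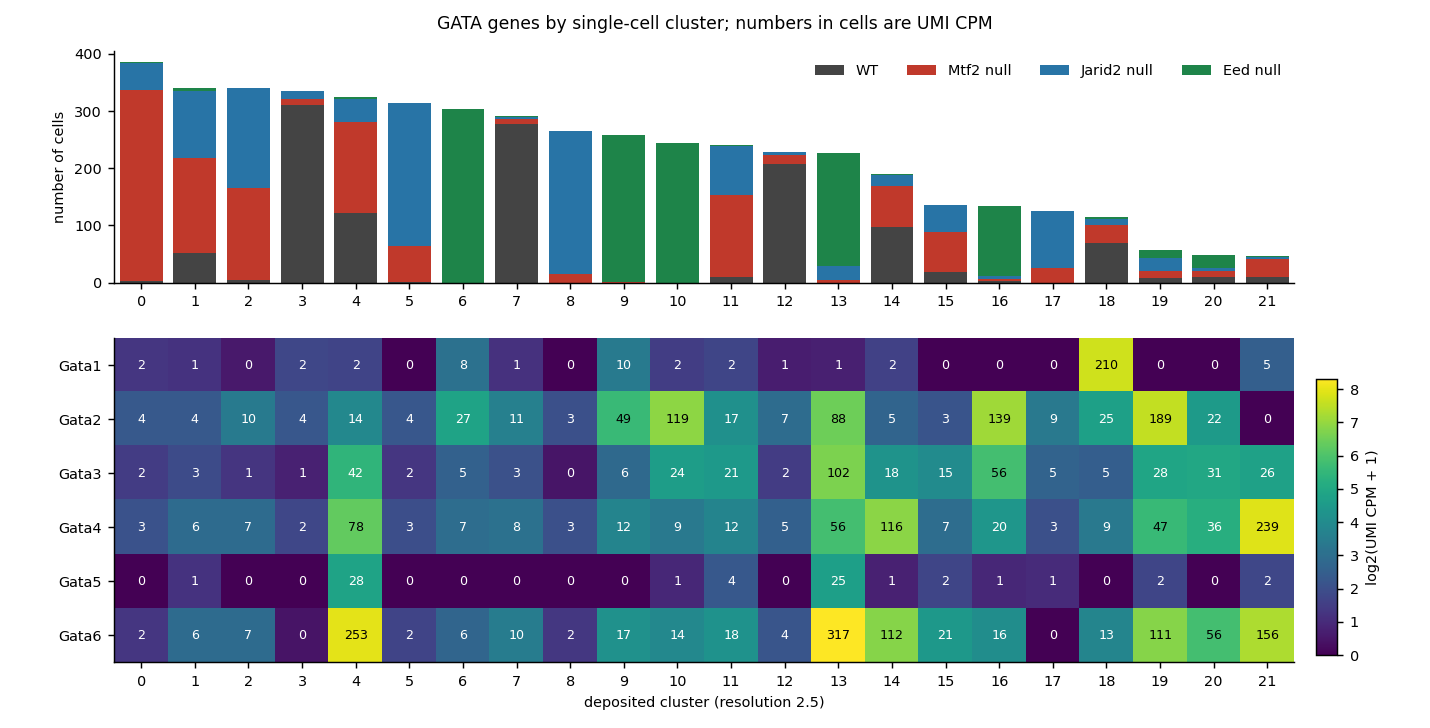
Above, number of cells in each deposited cluster by genotype; below, level of each GATA gene in each cluster, with the number giving UMI CPM and the colour log2(UMI CPM + 1). Gata1 stands out in cluster 18, Gata2 in clusters 19, 16, 10 and 13, Gata4 in cluster 21, and Gata6 in clusters 13 and 4, and clusters 6, 9, 10, 13 and 16 consist mostly of Eed null cells.

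By library, Gata2 was higher in Eed null cells than in any other genotype on each day, at 31.8, 85.5, 107 and 131 UMI CPM on days 0, 4, 7 and 10. The other 3 genotypes stayed between 1.0 and 22.2 UMI CPM. On day 10, Gata3 was also highest in Eed null cells, at 120 UMI CPM (102 to 140) against 28.2 in Mtf2 null, 26.5 in WT and 15.6 in Jarid2 null cells. Gata6 reached 322 UMI CPM (293 to 354) in Eed null cells on that day, against 151 in WT, 98.2 in Mtf2 null and 79.0 in Jarid2 null cells. On day 7 the order of Gata6 was another one, with 91.8 (80.1 to 105) in Mtf2 null and 69.7 (58.9 to 81.9) in WT cells, whose intervals meet, above 25.9 in Eed null and 12.6 in Jarid2 null cells.

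Gata4 on day 7 had 66.4 UMI CPM in WT, 47.0 in Mtf2 null, 19.1 in Eed null and 5.77 in Jarid2 null cells, and on day 10 62.9, 53.7, 62.7 and 27.1 in the same order. The day 10 intervals of WT, Mtf2 null and Eed null cells overlapped. In bulk EBs of day 7, by contrast, Gata4 measured 217.6 CPM under the label Jarid2 null against 18.5 in JM8. Under Mtf2 null it had 62.2 CPM there against 3.33 in Pcl1-3 WT. Gata6 of Jarid2 null also lay below WT in single cells of day 7 and above JM8 in bulk (99.5 against 29.4 CPM). Gata6 of Mtf2 null had the higher level in both. The WT lines differ, and the experiments were not compared in a test. On day 0, Gata4 had 2.68 UMI CPM in WT, 3.08 in Mtf2 null and 3.11 in Jarid2 null cells. These levels rest on 8, 12 and 10 UMIs. The ratio of Mtf2 null to WT was 1.15 (exact interval of 0.433 to 3.25 from the counts). In the undifferentiated directed libraries the difference was 4.17-fold. The interval covers counting error in 1 library per genotype and no spread between cultures. The directed libraries are bulk RNA of another experiment, so the interval cannot decide whether the experiments differ, and this was not tested. Gata6 on day 0 had 1 UMI in WT and 4 in Mtf2 null cells, a ratio of 3.07 (0.304 to 151), which leaves its difference undetermined at this depth. Gata1 was highest in WT cells on day 10, at 55.8 UMI CPM (44.1 to 69.6), with 28.2 in Mtf2 null, 12.7 in Jarid2 null and 2.99 in Eed null cells. Gata5 appeared on day 10 with 27.6 UMI CPM in Eed null, 22.2 in Mtf2 null, 7.87 in WT and 4.03 in Jarid2 null cells. The clusters differ in genotype, and how far these differences between libraries come with the mix of cells was not tested.

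**Figure D5:**
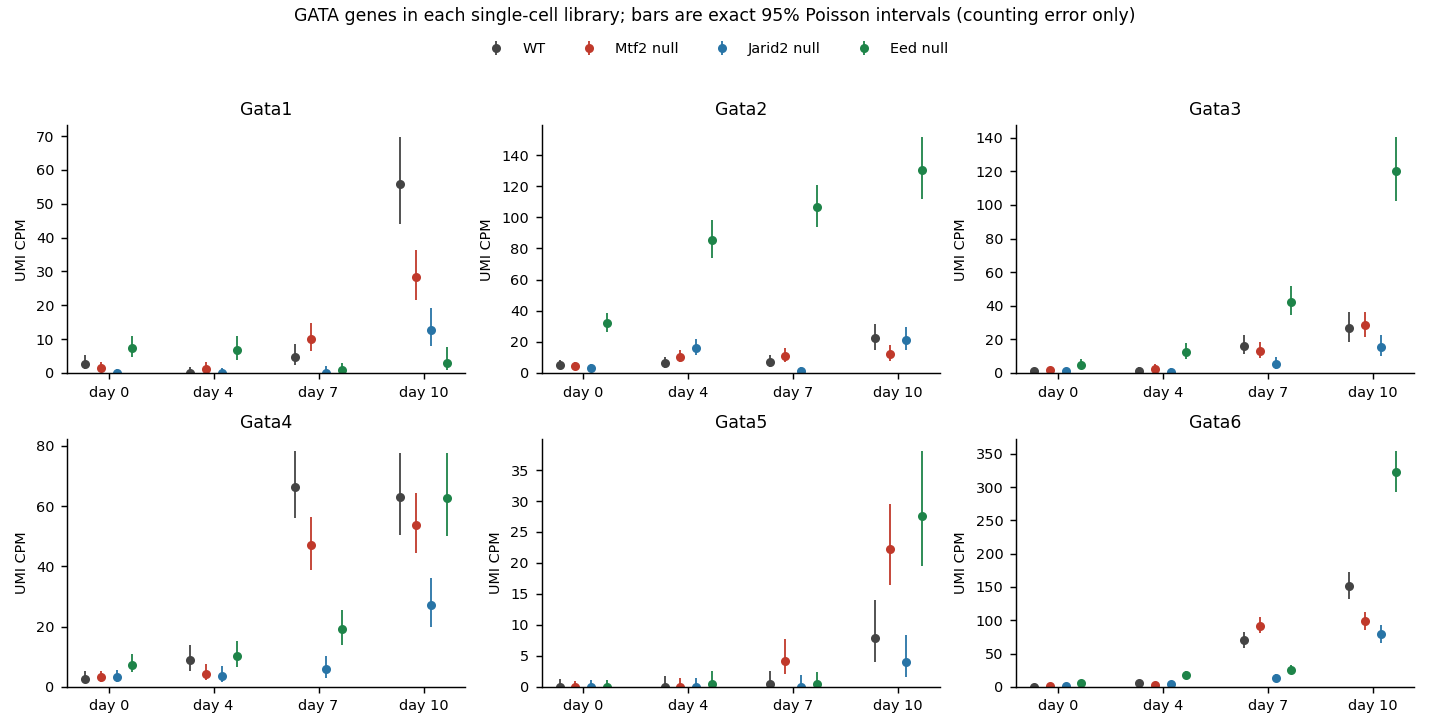
UMI CPM of each GATA gene in each single-cell library by day and genotype, on a linear axis that differs between panels, with exact Poisson bars of 95% that cover counting error only. Gata2 of Eed null cells lies above all other libraries of its day and reaches 131 UMI CPM on day 10, and Gata1 is highest in WT cells on day 10 at 55.8 UMI CPM.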

How the data were processed

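RNA levels of 6 GATA genes were taken from 88 samples. For the directed libraries the authors aligned reads to GRCm38/mm10 with Bowtie2 and deposited estimated counts from Salmon, which were rounded here to whole numbers. For bulk EBs the authors deposited counts divided by size factors (a signal scale). These were divided by the value of 1 read, and 100% of values came out whole within 0.02 in 45 of 46 columns. The design had not foreseen this scale. Limma used the deposited values, with columns of 1 sample averaged. The directed duplicates are technical, and the well tables of the single-cell plates were not used. Promoter sequences came from RefSeq (GRCm38.p6), where 4 of 6 members matched. For single cells the authors deposited UMI counts per cell and gene after alignment with Bowtie2, counting with HTSeq and a Scater filter on cells, with Seurat clusters. No doublet caller was run on the sorted single wells.

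Directed counts were tested in edgeR 4.0.16 (R 4.3.3) with TMM scaling and the quasi-likelihood test, after a filter on low counts (filterByExpr, minimum count 10, minimum total 15). Benjamini-Hochberg adjusted p-values cover all genes tested, 18361 in mesoderm, 19261 in endoderm and 19601 over both, with a call at an adjusted p under 0.001 and a log2 difference above 1. Bulk EB values were tested in limma 3.58.1 with a trend on log2 CPM (prior count 2, at least 1 CPM in 4 samples), with terms for line and day, at an adjusted p under 0.05. Single-cell values carry exact Poisson and Clopper-Pearson intervals of 95%, and thinning drew 2500 UMIs per cell, which left out 492 cells. Levels are TMM-scaled CPM, and levels per length use the GENCODE vM21 union of exons. Alternatives were DESeq2 1.42.0, other size factors, no filter, a replicate block, other prior counts and samples left out, and those of edgeR on recovered EB reads and of undifferentiated libraries added over series were chosen after seeing the data. The tests were also run on independent values simulated from the spread of the fits. Such a run checks that the code recovers changes put into the data. It cannot show how far technical duplicates or days stand for replicates.

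The members, gene lists and tests were chosen with earlier results of these data known. The text names all 6 members, up to 3 called genes per list by size of the difference, and the 3 genes most correlated with each member over 24 group means. Markers of blood and endoderm and the targeted genes are named where a result turns on them.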

Additional observations from a re-analysis of the deposited data

Results flagged for a closer look

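In a group of 4 undifferentiated directed libraries, a library was looked at again when its gap to the next was large against the range of the group by Dixon's criterion. Of 18 groups examined 2 passed, and chance passes about 1 in 20. Gata3 in Mtf2 null cells had a highest library of 1.00 CPM (12 counts), in the endoderm series, above 0.726 to 0.771 CPM in the other 3. Gata5 in Jarid2 null cells had a highest library of 0.538 CPM (7 counts), in the endoderm series, above 0.129 to 0.173 CPM in the others. Both rest on few counts.

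Effects that differed between protocols or times were those of 3 genes by edgeR. The 48 h effect on Gata2 in WT cells differed by 5.70 between mesoderm and endoderm. In the endoderm series the difference between Mtf2 null and WT cells grew from undifferentiated to 48 h by 1.71 for Gata4 and by 2.62 for Gata6.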

How the results depend on the processing

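No called result changed direction under the alternatives run. Results that were not called could change sign. Without day 0 the Gata2 difference under the label Jarid2 null went from 0.96 to -0.05, and that of Gata5 under Eed null from 0.15 to -0.01. Without the filter on low counts, 8 tests of the members were called in the mesoderm series in place of 5, 9 in the endoderm series in place of 7, 14 over time in place of 12 and 3 for the interaction in place of 2, and Gata5 entered the test. The tests of Gata2 gained most of these calls. Without the day term the bulk EB calls went from 4 to 2, and the Gata6 calls were those lost. After thinning, Gata3 in cluster 13 measured 125.25 UMI CPM in place of 102. With a replicate block, 5 tests of mutant against WT were called in mesoderm, 7 in endoderm, 11 in place of 12 over time, 2 for the interaction and 3 over both undifferentiated series, so that 1 call changed. Same-numbered libraries did not deviate together (66 pairs of groups per series, r from -0.4 to 0.41 and from -0.433 to 0.496), so the numbers were not taken as pairs, although undifferentiated libraries with number 2 resembled their namesakes of the other series. With 1 library left out at a time, the calls ranged from 5 to 6 in mesoderm, 6 to 8 in endoderm, 11 to 13 over time, 2 to 3 for the interaction and 2 to 3 in undifferentiated cells, with the lone library of a group assumed to vary like the others. The contrast of protocols kept 1 call, and bulk EBs had 4 to 5 without 1 day. Gata6 at 5 h of endoderm in Mtf2 null cells lost its call in 3 such refits (adjusted p of 0.00144 to 0.0015). DESeq2's Wald test gave an adjusted p for 111 of 145 tests of the members and left the others as NA. In it, 1 call was lost and 1 gained. With edgeR on recovered EB reads 6 tests were called in place of 4, among them Gata2 (adjusted p = 0.0474) and Gata5 (0.0469, on 18 reads over 4 days, so that its size depends on the prior count). Depth limits Gata1 and Gata5 in the directed libraries, with at most 21 and 8 counts, and Gata5 and Gata6 in WT, Mtf2 null and Jarid2 null single cells of day 0.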

Other observations

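Within single clusters the members could be set side by side over genotypes, as values of 1 to 4 libraries each with no test. In cluster 4, Gata6 measured 306 UMI CPM in 122 WT cells, 231 in 159 Mtf2 null cells and 201 in 40 Jarid2 null cells. Gata4 had 86.0, 79.5 and 51.2 there. Gata5 had 14.8 UMI CPM in WT, 40.6 in Mtf2 null and 10.2 in Jarid2 null cells. In cluster 21, Gata4 had 312 UMI CPM in 9 WT cells and 166 in 33 Mtf2 null cells, and 1 of the WT cells held 24 of their 48 UMIs. In cluster 19, Gata2 measured 185, 180, 219 and 179 UMI CPM in 14 Eed null, 22 Jarid2 null, 13 Mtf2 null and 8 WT cells. In cluster 13, Gata6 had 327 UMI CPM in 197 Eed null cells and 342 in 25 Jarid2 null cells, while Gata2 had 101 in Eed null cells and no UMI in Jarid2 null cells.

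The highest count in 1 cell was 37 UMIs of Gata2, in an Eed null cell of day 4 in cluster 16, followed by 24 of Gata4 in a WT cell of day 7 in cluster 21 and 20 of Gata6 in an Eed null cell of day 10 in cluster 13.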
